A study of Mus musculus with 21 samples.

Results

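Hair cells (HCs) of the mouse inner ear at postnatal day (P) 12 were compared with glial cells of the cochlea at P8 by bulk RNA sequencing, as 3 libraries of each, out of 21 libraries in 7 groups of 3. The members of the comparison were the genes over 1 CPM (counts scaled to the library total) in all 3 libraries of either group, 15664 of the 52550 genes counted. HC libraries came from mice with the driver Atoh1-CreER+ given tamoxifen at P0 and P1, and glial libraries from mice with the driver vGlut3-iCreER/+ given tamoxifen at P2 and P3. Both groups also carried a Cre reporter allele that makes red fluorescent cells, given as Rosa26-CAG-loxp-stop-loxp-tdTomato/+, and had C57BL/6 as their strain. HCs were pooled from cochlear and vestibular tissue, with about 1200 cells a library, and glia were picked by hand from the cochlea, with 125, 86 and 101 cells. Cell type, age, tissue, Cre driver, age at tamoxifen and cell number changed together between the groups. By the study's methods so did the isolation, with flow sorting for HCs, while the labels describe hand picking for both groups. The shares of these in any difference cannot be told apart. The labels do not say whether replicates came from separate litters, so p-values measure only the spread between the samples fitted. That spread was estimated once per gene over all 21 libraries, not from the HC and glial libraries alone. Glial replicates varied more than HC replicates, which a shared estimate does not reflect. In bulk RNA, fewer cells of a type and less RNA per cell cannot be told apart either.

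HCs turn sound and head movement into receptor potentials through a bundle of actin-filled stereocilia, whose tip links pull open mechanotransduction channels, and they release glutamate at ribbon synapses. Outer hair cells (OHCs) amplify sound, inner hair cells (IHCs) drive the auditory nerve, and vestibular HCs keep a true cilium, the kinocilium, beside the stereocilia, which cochlear HCs lose as they mature. The glia of the cochlear nerve and ganglion are Schwann cells, which myelinate axons, and satellite glia, which wrap neuronal cell bodies. Both come from the neural crest and sit on a basal lamina that they make themselves.

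Library totals were 12205135 to 17925719 counts for HCs and 10368240 to 19759856 for glia. Replicates were more alike among HCs (Pearson r of log2(CPM + 1) across genes, with CPM scaled by the trimmed mean of M values (TMM), 0.959 to 0.966) than among glia (0.807 to 0.833), and pairs of an HC and a glial library gave 0.552 to 0.624. The median SD between replicates of log2(TMM-scaled CPM + 1) was 0.26 in HCs and 0.77 in glia, and 0.402 to 1.02% of the tested genes had no count in an HC library against 4.95 to 10.02% in a glial library. Mitochondrial genes took 9.54 to 10.6% of HC counts and 10.4 to 13.5% of glial counts. Levels are given as normalised RPKM, which is CPM after TMM scaling, divided by the gene's length in kilobases. TPM, which scales length-corrected counts to a fixed total, were not used for levels because the 57-base gene Gm23935 alone took 22.5% of that total on average in HCs and 61.1% in glia.

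HCs and glia differed in a large share of the tested genes, and more of these genes were higher in HCs than in glia. Of the listed genes tested, 17 of 19 of the stereocilia and 23 of 24 of the cilium were called higher in HCs and none in glia, while those of the ribbon synapse gave 9 of 17 and 1. Myelin (14 of 18), the basal lamina (20 of 21) and the cell cycle (15 of 24) had genes called higher in glia and none in HCs. With a gene called when its fold was over 4 and its limma adjusted p under 0.01, 4177 genes were called, or 26.7% of those tested. Of them 2801 (17.9% of those tested) were higher in HCs and 1376 (8.78%) higher in glia. The median log2 difference (HCs minus glia) over the tested genes was 0.20, and it was 0.69 when libraries were scaled by their totals alone. That scaling called 3510 genes higher in HCs and 983 higher in glia, 78.1% on the HC side against 67.1% with TMM. Weighting libraries by their quality gave 861 and 1337, which puts 39.2% on the HC side, and edgeR's quasi-likelihood test gave 1732 and 1387, which puts 55.5% there.

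The filter itself shaped these counts. HCs passed 1 CPM alone at 4912 genes, of which 2055 were called higher in HCs, and glia alone at 778 genes, of which 472 were called higher in glia. A gene that passed through a single group had to differ to some extent. The lists below were not split by this, so the filter partly set the calls of such members and the counts of their lists. Among the 9974 genes over 1 CPM in both groups, 746 were called higher in HCs and 904 higher in glia. Of the 4177 called genes, 4116 showed no overlap between the HC and the glial libraries, as did 8223 of all tested genes. By biotype, 1985 protein-coding genes of 12770 tested were higher in HCs and 1220 higher in glia. Long intergenic noncoding RNAs gave 146 and 26 of 357, and antisense RNAs 180 and 19 of 497. In what follows, levels are in normalised RPKM and given in the order of replicates 1, 2 and 3, and differences are log2 differences of HCs minus glia, positive where HCs were higher. Adjusted p-values are limma's unless another tool is named. The plot of mean levels shows both sets of called genes and some of the genes described here.

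**Figure D1:**
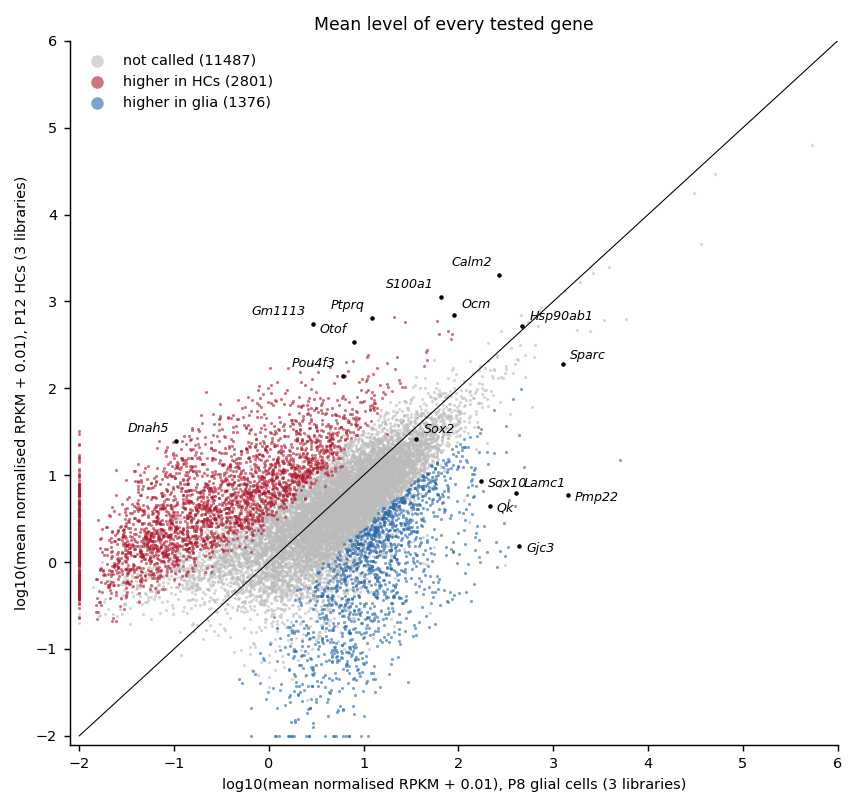
Each point is 1 of the 15664 tested genes, placed by its mean level over 3 glial libraries (x axis) and 3 HC libraries (y axis), both as log10 of normalised RPKM + 0.01. Red points are the 2801 genes called higher in HCs, blue points the 1376 called higher in glia and grey points the rest, and the red column at the left edge holds genes with no glial counts.

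The marker genes followed the labels. Of 10 HC markers, 9 were higher in HCs and none higher in glia, and of 10 Schwann and satellite glia markers 9 were higher in glia and none in HCs. Pou4f3, a transcription factor needed for HC survival, stood at 132, 149 and 139 normalised RPKM in HCs and at 10.2, 4.64 and 3.34 in glia, a log2 difference of 4.56 (SE 0.70, adjusted p = 2.7e-05). Gfi1, a zinc-finger factor of HC differentiation, was at 66.5, 62.6 and 61.8 in HCs and 1.42, 1.14 and 0.755 in glia (log2 difference 5.82, adjusted p = 8.3e-08), although it overlaps A430072P03Rik on the other strand. Neither gene had a glial library near the HC libraries. On GRCm38, Gfi1 (ENSMUSG00000029275.18) is at chr5:107716657-107726036, minus strand. Myo6 (chr9:80165031-80311729), an unconventional myosin of the cuticular plate, was at 118, 120.4 and 111 in HCs and still at 26.0, 19.9 and 25.9 in glia (2.28, adjusted p = 5.3e-08). Myo7a, the myosin of the upper tip link, was at 59.7, 62.1 and 71.2 against 5.98, 3.66 and 6.798 (3.59, adjusted p = 7.2e-07).

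Sox2, a factor of sensory progenitors, supporting cells, some vestibular HCs and immature Schwann cells, was the HC marker that did not separate the groups. Its levels were 31.0, 24.6 and 23.6 in HCs and 47.2, 35.7 and 24.9 in glia, which overlapped (log2 difference -0.50, adjusted p = 0.25). Atoh1, the gene whose enhancer drives the Cre in the HC mice, was low at this age, at 8.69, 5.09 and 4.05 in HCs, but lower in glia at 0.0972, 0.246 and 0 (5.95, adjusted p = 3.1e-05). Slc17a8 encodes vGlut3, the vesicular glutamate transporter of IHCs, and its locus drives the Cre of the glial mice. It was at 111, 103 and 100.1 in HCs and at 23.7, 14.5 and 43.5 in glia (2.10, adjusted p = 0.00073), so its RNA was present in all 3 glial libraries. Without glial replicate 2 its log2 difference fell to 1.79, under the fold limit, and in edgeR its adjusted p was 0.093.

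Among glial markers, Sox10 (chr15:79154908-79165240), the master regulator of peripheral glia, was at 8.27, 8.08 and 9.25 in HCs and 200.3, 213 and 105 in glia (-4.32, SE 0.45, adjusted p = 2.8e-07). Foxd3, a neural crest factor kept in immature glia, was at 0.864, 0.166 and 0 against 70.2, 91.2 and 66.7 (-9.47, adjusted p = 1.1e-06). The HC and glial libraries did not overlap at either gene. S100b, a calcium-binding protein often used to stain glia, did not pass, at 29.7, 24.1 and 24.4 in HCs and 21.1, 26.1 and 7.13 in glia (0.61, adjusted p = 0.43).

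**Figure D2:**
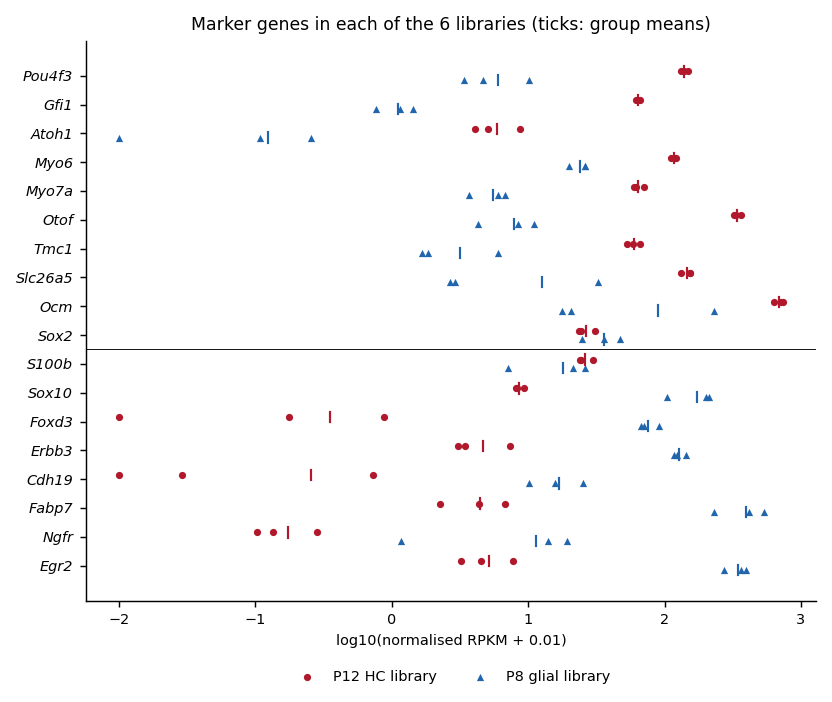
The 10 genes of the HC marker list (upper block) and 8 of the glial marker list (lower block) are shown with their levels in the 3 HC libraries (red circles) and the 3 glial libraries (blue triangles) as log10 of normalised RPKM + 0.01. Ticks mark the log10 of group means. Sox2 and S100b are the genes whose HC and glial points overlap.

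Each group also carried RNA of genes known as markers of other cells, at different levels in different libraries. HC replicate 1 had the highest summed level over the 10 glial markers among HCs. It was 109, against 45.7 and 44.2 in the other HC libraries and 5515 to 7784 in glia. Leaving out HC replicate 1 moved the log2 difference of Cldn19, a tight junction protein of myelinating Schwann cells, from -12.07 to -14.81, and that of Dhh, a Schwann cell morphogen, from -11.62 to -13.89. The direction and the call of both genes did not change.

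Glial replicate 1 held the most RNA of OHC and neuron genes. Its sum over 8 OHC genes was 329 against 66.0 and 39.9 in glial replicates 2 and 3, and its sum over 12 spiral ganglion neuron markers was 291 against 79.8 and 33.6. Glial replicates 2 and 3 held more of the cilium genes (46.1 and 31.5 against 16.2) and of the cochlear supporting cell markers (115 and 133 against 39.4). Otog, a tectorial and otolithic membrane protein, was at 0.00996 in glial replicate 1 and at 5.33 and 4.59 in the others. Which HC and supporting cell genes were detected thus differed between the glial libraries.

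Of 11 tested neuron markers, 3 were higher in glia (Stmn2 and Tubb3 among them), and Stmn2, a regulator of microtubules in growing axons, was at 10.9, 1.30 and 2.44 in glia. The call of Tubb3 was lost in 6 of the 18 alternatives and that of Stmn2 in 1. The neurofilament genes Nefl and Nefm made up most of the neuron sum of HCs, which was 91.4 to 101, and did not differ (adjusted p = 0.69 and 0.13). Of 10 fibroblast and mesenchyme markers 5 were higher in glia and none in HCs, with sums of 31.9 to 34.6 in HCs and 250.3 to 393 in glia. Of the endothelial markers 2 could be tested, and Emcn, an endothelial sialomucin, was higher in glia (0.306, 0.459 and 0.0890 against 6.801, 13.3 and 34.1), a call that was lost in several alternatives. The macrophage gene C1qb, a complement subunit, and the erythroid gene Alas2, an enzyme of haem synthesis, were higher in HCs. Their levels were at most 10.4 and 2.08, and they were the only members tested of lists of 9 and 6 genes. Of the red blood cell markers Hba-a2, Hbb-bt and Hbb-bh1 had no counts in any HC library. Of the 9 macrophage markers 7 were at 0 in all glial libraries and 2 in all HC libraries, and the sum was 5.05 to 11.8 in HCs. Of 3 tested melanocyte markers Dct was higher in HCs and Mitf in glia, with sums of 5.84 to 8.94 and 10.9 to 27.3. Both calls were lost when some single libraries were left out. Aqp4, a water channel and the only 1 tested of 6 central glia markers, was higher in HCs, at up to 2.19. Mog and Opalin of that list had no counts in any HC library. Whether this marker RNA came from other cells or from HCs and glia themselves was not tested, nor was its share in the differences.

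**Figure D3:**
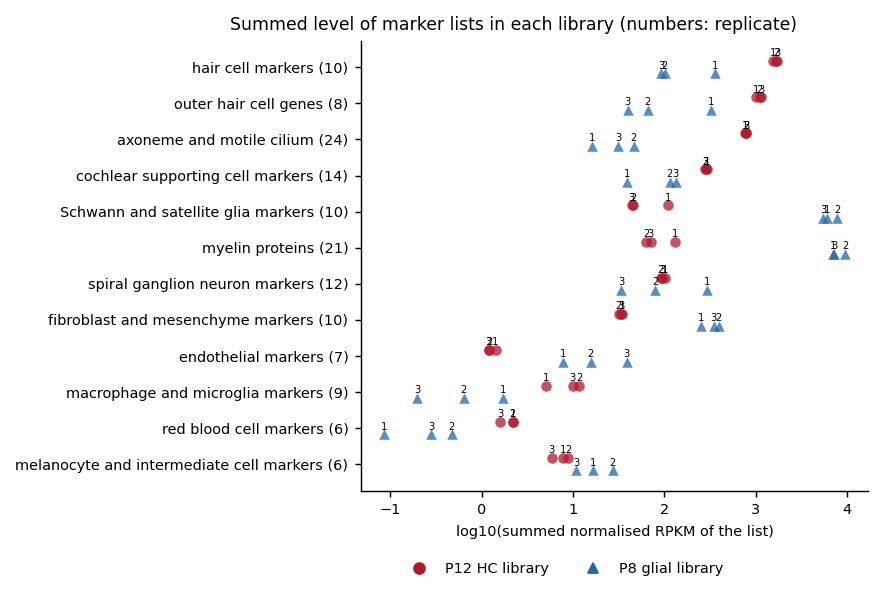
Summed level of each marker list in each library, as log10 of summed normalised RPKM, with red circles for HC libraries and blue triangles for glial libraries, the replicate number above each point and the number of listed genes in parentheses. Glial replicate 1 lies apart from the other glial libraries for OHC genes (329 against 66.0 and 39.9), and HC replicate 1 is highest among HCs for glial markers (109 against 45.7 and 44.2).

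The most abundant genes called higher in HCs included the calcium-binding proteins Calm2, S100a1 and Ocm, beside genes of other functions. Calm2, a calmodulin gene, was at 2164, 2131 and 1745 in HCs and 399, 206 and 202 in glia (2.87, SE 0.28, adjusted p = 1e-07). Calm3, which encodes the same protein, did not pass (0.63, adjusted p = 0.2). S100a1, an EF-hand protein, was at 1153, 1096 and 1150 in HCs against 46.9, 76.6 and 70.5 (4.22, adjusted p = 3.2e-09). Of 8 calcium buffers 5 were higher in HCs and none in glia, Ocm and Calb2 among them. Calb1 and Pvalb, which encode calbindin and parvalbumin, did not pass (adjusted p = 0.028 and 0.054). The count of 5 was 3 with library quality weights and also without the low-count filter.

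Ocm, the oncomodulin of OHCs, differed between groups by an amount that glial replicate 1 set in large part. It was at 637, 709.6 and 741 in HCs and at 229.7, 20.7 and 17.6 in glia (3.63, SE 1.04, adjusted p = 0.0074). Its log2 difference was 5.20 without glial replicate 1, and its adjusted p was over 0.01 each time a single library was left out, from 0.012 to 0.03. Fbxo2, a ubiquitin ligase subunit abundant in cochlear cells, was at 650.4, 601 and 549 in HCs and 57.2, 62.5 and 58.7 in glia (3.32, adjusted p = 1.9e-08). Spp1, the matrix protein osteopontin known from type I vestibular HCs, was at 705, 678 and 608 against 36.98, 14.1 and 11.7 (5.01, adjusted p = 2.2e-06). Ptprq (chr10:107517049-107720051), a receptor phosphatase of the stereociliary shaft connectors, was at 639, 655 and 619 against 17.6, 11.1 and 7.61 (5.71, adjusted p = 2e-10). Gm1113, a predicted gene at chr9:35509222-35518269, reached 521, 552 and 572 in HCs and 0.0423, 5.64 and 2.97 in glia (9.50, adjusted p = 1.5e-06). Without glial replicate 1 its log2 difference was 7.06.

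HC transcription factors were higher in HCs at 11 of 15 tested members and higher in glia at none, with a median log2 difference of 3.40 against 0.20 over all tested genes. Beside Pou4f3, Gfi1 and Atoh1, these included Lhx3, Nhlh1, Barhl1, Eya1, Isl1, Prox1 and Ikzf2. Lhx3, a LIM-homeodomain factor, was at 20.4, 22.9 and 20.9 in HCs and 0.558, 0.741 and 0.506 in glia (5.15, adjusted p = 1.2e-05). Eya1, a transcriptional coactivator of otic development, was at 51.65, 51.9 and 47.2 against 5.05, 1.97 and 7.93 (3.53). Prox1, a homeodomain factor of supporting cells and OHCs, was at 30.3, 27.2 and 26.7 against 7.77, 2.06 and 0.895 (3.25). Ikzf2, the OHC factor helios, stood nearest the fold limit at 8.57, 7.94 and 8.24 against 3.33, 0.561 and 3.46 (2.04) and fell to 1.29 without glial replicate 2. Rfx3, a regulator of ciliary genes, was at 24.0, 22.6 and 22.7 against 10.5, 7.44 and 1.99, a log2 difference of 1.94 that missed the fold limit (adjusted p = 0.00021). Rfx2 and Tbx2 did not pass (adjusted p = 0.47 and 0.68). With quality weights 7 of the 15 were called.

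All 17 genes of the mechanotransduction complex, the tip link and the Usher proteins were higher in HCs. Their median log2 difference was 4.595 and the HC and glial libraries did not overlap at any of them. Tmc1, a pore-forming channel subunit, was at 53.4, 66.0 and 58.6 in HCs and 6.01, 1.66 and 1.82 in glia (4.33, SE 0.67, adjusted p = 2.8e-05). Tmc2, its paralogue of early and vestibular HCs, was at 30.7, 32.6 and 34.4 against 0.112, 0.378 and 0.0299 (7.99, adjusted p = 1.7e-07). Cib3 and Cib2, calcium- and integrin-binding partners of the channel, differed by unequal amounts. Cib3 was at 174, 173 and 162 against 0.0512, 2.03 and 0.956 (8.52, adjusted p = 3.7e-06; 6.90 without glial replicate 1), and Cib2 at 84.0, 106 and 93.5 against 20.7, 8.48 and 4.23 (3.20, adjusted p = 2.6e-05).

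The tip-link cadherins Cdh23 and Pcdh15 differed by 4.47 and 3.93, and Lhfpl5 and Tmie, which join them to the channel, by 4.29 and 5.10. Adgrv1, a very large receptor of the ankle links, was at 11.5, 11.97 and 11.9 in HCs and at 0.209, 0.639 and 0.221 in glia (5.30). Ush1c, the scaffold harmonin, was at 96.4, 95.1 and 106 against 3.61, 2.89 and 1.75 (5.16). Loxhd1, a protein of the stereociliary membrane, differed by 5.36. Whrn and Pdzd7, scaffolds of the ankle-link complex, had the smallest differences with Cib2. Whrn was at 6.26 in glial replicate 3 against 0.499 and 0.497, and its log2 difference was 2.30 without glial replicate 1 against 3.01 with it, where its call was lost (adjusted p = 0.021). Pdzd7 fell from 2.75 to 1.49 without glial replicate 3 and was then not called.

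Of 19 genes of the stereociliary actin core, taper and cuticular plate 17 were higher in HCs, with a median of 4.54. Xirp2, an actin-binding repair protein, was at 60.4, 60.0 and 56.9 in HCs and 0.499, 0.609 and 0.410 in glia (6.87, SE 0.50, adjusted p = 2.5e-09). Myo3b and Myo3a, the tip myosins, differed by 7.46 and 4.54, and Myo15, the myosin that carries whirlin and Eps8, by 5.00. Pls1, an actin-bundling fimbrin, was at 122, 123 and 113 against 2.56, 2.17 and 1.76 (5.76), while its family member Lcp1 differed by 2.08 and lost its call when single libraries were left out. Grxcr1 and Grxcr2, glutaredoxin-like proteins of the bundle, differed by 4.82 and 4.70, and the bundlers Espn and Fscn2 by 4.77 and 3.75. Rdx, the membrane linker radixin that many cells express, was at 29.7, 35.2 and 27.5 against 61.2, 27.8 and 38.9 and did not pass (-0.47, adjusted p = 0.12), and neither did Tprn, the taper protein (0.29, adjusted p = 0.84).

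Genes of the axoneme, the microtubule core of motile cilia, had a larger median difference than the other lists of HC functions. Of 24 tested, 23 were higher in HCs, Rsph9 being the other, with a median log2 difference of 6.19. Members without counts in a glial library, Dnah5 and Dnah6 among them, could be tested only through HCs, so the filter favoured their call. Of all genes over 1 CPM in HCs alone, 2055 of 4912 were called higher in HCs. Summed levels were 773 to 787 in HCs and 16.2 to 46.1 in glia. The axonemal dynein heavy chains Dnah5, Dnah6, Dnah9 and Dnah11 were all called. Dnah5 was at 24.0, 25.9 and 24.1 in HCs and at 0, 0.150 and 0.136 in glia (9.68, SE 1.49, adjusted p = 2.7e-05), and Dnah6 at 45.9, 42.8 and 45.6 against 0, 0.433 and 0.421 (9.51, adjusted p = 7.3e-05). Both had no counts in glial replicate 1 and low in the others, and without glial replicate 1 their log2 differences were 7.41 and 6.71. Cfap65, a protein of the central apparatus, was at 69.7, 67.7 and 82.4 against 0, 0.700 and 0.677, and Armc4, a dynein docking protein, at 45.3, 50.7 and 53.1 against 0, 0.325 and 0.222, with log2 differences of 9.50 and 9.31 that became 6.73 and 7.48 without glial replicate 1.

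Dnah6 overlaps Gm20560 and Cfap65 overlaps Gm15841 on the other strand. Foxj1, the transcription factor of motile cilia, was at 49.0, 53.9 and 47.8 in HCs and 0.845, 0.463 and 1.32 in glia (5.94, SE 0.74, adjusted p = 2.3e-06). The tektins Tekt1, Tekt2 and Tekt3, filaments of the microtubule doublets, differed by 6.22, 5.97 and 7.29. Rsph1 and Rsph4a, radial spoke proteins, differed by 7.89 and 5.49, and the ruler proteins Ccdc39 and Ccdc40 by 4.47 and 4.78. Ift88 and Bbs1, which move cargo in primary cilia too, differed by less, at 3.41 and 3.98. Spag16, of the central apparatus, was at 8.91, 7.45 and 8.53 against 0, 0.0770 and 0.0285 (8.57, adjusted p = 3.2e-06). Cfap44, a tether of the inner dynein arm, was at 30.3, 31.8 and 31.8 against 0.0243, 0.296 and 2.05 (7.21, adjusted p = 2.1e-05).

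The promoters of Spag16 and Cfap44 are printed because they alone among 20 cilium genes with a RefSeq promoter matched a relaxed X-box. The X-box is the motif of the RFX factors, and the form matched is the letters GTTNCC, any 3 bases and GNAAC. The printed promoters are the 250 bases before the start, 5′ to 3′ on the gene's own strand, from RefSeq on GRCm38.p6, with the motif in capitals. Spag16 is at chr1:69826720-69826969 and Cfap44 at chr16:44394549-44394798, both on the plus strand. The motif ends 89 bases before the start in Spag16 and 13 bases before it in Cfap44, where it reads on the minus strand.
Spag16: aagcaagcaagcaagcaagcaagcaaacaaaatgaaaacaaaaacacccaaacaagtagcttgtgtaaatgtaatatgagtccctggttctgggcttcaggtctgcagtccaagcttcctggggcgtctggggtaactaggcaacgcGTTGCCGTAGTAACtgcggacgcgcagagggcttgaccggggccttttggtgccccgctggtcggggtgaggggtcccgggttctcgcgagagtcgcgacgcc
Cfap44: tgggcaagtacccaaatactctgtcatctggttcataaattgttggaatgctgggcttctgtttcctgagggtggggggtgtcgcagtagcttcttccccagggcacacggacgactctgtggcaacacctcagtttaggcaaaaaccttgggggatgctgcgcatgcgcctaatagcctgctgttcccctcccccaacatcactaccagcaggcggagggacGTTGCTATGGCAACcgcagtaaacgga
Both strands were searched. This form was chosen among 3 after all were tried, and it occurred in 0.784% of 27025 promoters, in 1.06% of 10641 promoters of tested genes, in 1.94% of 1753 of genes higher in HCs and in 0.619% of 970 of genes higher in glia. The stricter form, GTTGCC, any 2 bases and GGNAAC, was in 0 of the 20 and in 0.292% of all promoters, and the half-site GTTGCC in 6 of the 20 and in 11.8%. A match describes the letters only, and no binding was measured.

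At the ribbon synapse 9 of 17 genes were higher in HCs, with a median of 2.10, and Unc13b, a vesicle priming factor, was higher in glia. Otof, the calcium sensor of HC exocytosis, was at 321, 333 and 364 in HCs and 4.25, 11.1 and 8.37 in glia (5.64, SE 0.64, adjusted p = 8.8e-07). Cabp2, a modulator of the presynaptic calcium channel, was at 183, 196 and 185 against 2.67, 3.47 and 2.35 (6.06, adjusted p = 6.8e-08). Cacna1d, the pore of that channel, was at 31.0, 33.6 and 34.4 against 5.08, 3.32 and 2.30 (3.19), and its beta subunit Cacnb2 differed by 3.41. The scaffold Rimbp2 and the adhesion protein Nrxn3 differed by 5.30 and 6.22. Ctbp2, whose locus also encodes the ribbon protein ribeye, was at 11.1, 12.7 and 12.8 against 5.12, 3.59 and 4.80, a log2 difference of 1.43 under the fold limit (adjusted p = 0.00035). General synaptic genes such as Syp, Vamp2 and Snap25 did not pass (adjusted p = 0.87, 0.42 and 0.51). Unc13b was at 0.486, 0.523 and 0.769 against 3.04, 3.66 and 2.66 (-2.39) and lost its call without HC replicate 2.

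Of 14 HC channels, pumps and efferent receptors 10 were higher in HCs and none in glia. Kcna10, a potassium channel of HCs, was at 166, 185 and 183 in HCs and 6.18, 3.92 and 3.06 in glia (5.33, SE 0.69, adjusted p = 3.9e-06). Atp2b2, the calcium pump of stereocilia, was at 72.5, 82.6 and 78.5 against 11.3, 3.67 and 2.72 (3.83, adjusted p = 1.2e-08). Chrna9 and Chrna10, the subunits of the efferent acetylcholine receptor, differed by 4.84 and 4.72, and Kcnma1, the large-conductance potassium channel, by 4.12. Kcnj2, an inward rectifier, was among the genes with the largest differences, at 23.0, 20.1 and 18.8 against 0, 0.0638 and 0.106 (9.30, adjusted p = 0.0001), with 7.83 without glial replicate 1 and a DESeq2 adjusted p of 0.023. With quality weights 6 of the 14 were called.

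Genes known from each HC subtype were present in the pooled HCs. Of 8 OHC genes 7 were higher in HCs, of 5 IHC genes 4, and of 9 vestibular HC genes 6. None was called higher in glia. The vestibular genes not called were Sox2, Mapt and Ntm, and at Mapt and Ntm every glial library was above every HC library. Mapt differed by -1.31 (adjusted p = 0.012) and Ntm by -1.92 (adjusted p = 0.0052), both under the fold limit. Without glial replicate 1 Ntm was called higher in glia (adjusted p = 0.006). Slc26a5, the OHC motor prestin, was at 131, 155 and 154 in HCs and 32.3, 2.66 and 2.91 in glia (4.19, SE 0.87, adjusted p = 0.0006). It was 5.73 without glial replicate 1, and its adjusted p was 0.02 in edgeR and 0.011 with quality weights. Strip2 and Lbh, both enriched in OHCs, differed by 3.32 and 2.70. Slc7a14, a transporter-like protein of IHCs, was at 12.21, 10.7 and 12.3 against 1.44, 1.64 and 1.16 (3.05). Calb2 and Anxa4, known from vestibular HCs, differed by 2.53 and 3.96. Both calls were lost without glial replicate 1 (adjusted p = 0.02 for both), where Calb2 still differed by 2.56 and Anxa4 by 2.52. In edgeR 4 of the 8 OHC genes were called.

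Epithelial junction genes were higher in HCs at 9 of 16 members and higher in glia at Cdh1 alone. Cldn9, a claudin of the HC apical junction, was at 234, 218 and 238 in HCs and 7.32, 11.7 and 13.6 in glia (4.52, SE 0.57, adjusted p = 2.9e-06). Cgn, the junction scaffold cingulin, differed by 3.92, and Marveld2 and Ildr1, both of tricellular junctions, by 3.71 and 3.93. With quality weights the calls of Epcam, Cldn6, Cldn14, Ildr1, Ocln and Rab25 were lost (adjusted p = 0.018 to 0.051). Cdh1, E-cadherin, was at 4.22, 3.32 and 4.68 against 15.6, 49.6 and 45.1 (-2.88, adjusted p = 0.0061), a call that was lost in several alternatives including DESeq2's size factors and edgeR. The keratins Krt8 and Krt18 did not pass (adjusted p = 0.015 and 0.025). Of 13 cochlear supporting cell markers 5 were called higher in HCs, all of them extracellular matrix genes of the tectorial membrane or its attachment. Otog was at 150.2, 154 and 159 (8.52, adjusted p = 8.9e-05) and 4.97 without glial replicate 1, and Tecta at 16.8, 21.2 and 21.1 against 1.44, 0.152 and 3.30 (4.40). None of the 5 was called in edgeR. The supporting cell connexins Gjb2 and Gjb6 did not pass (adjusted p = 0.84 and 0.014). The plot of list differences shows all of these groups.

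Olfm4, a secreted olfactomedin, and Celf6, a CELF splicing factor, had counts in all HC libraries and 0 counts in every glial library. Olfm4 was at 13.9, 21.4 and 12.7 in HCs, at least 90.8-fold higher than the level that 3 counts would give in a glial library, and Celf6 at 1.19, 1.74 and 0.709, at least 15.2-fold higher. The DESeq2 adjusted p of Olfm4 was 0.087. Both genes could be tested only through HCs, so the filter favoured their call. Other tested genes, Cldn3 and Kcne2 among them, also had no glial counts.

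On the glial side the most abundant called genes included those of compact myelin and of the basal lamina. Pmp22, a compact myelin protein, was at 1038, 1703 and 1525 in glia and 15.6, 1.38 and 0.511 in HCs (-9.42, SE 1.77, adjusted p = 0.00023), and at -10.65 without HC replicate 1. Its adjusted p rose to 0.011 when the 6 libraries were fitted alone. Sparc, a collagen-binding matrix protein, was at 1120, 1442 and 1208 against 238, 170.1 and 159.9 (-2.75, adjusted p = 0.00038), but its adjusted p was 0.082 in edgeR and 0.06 in DESeq2. Ednrb, the endothelin receptor of neural crest derivatives, was at 500.1, 547 and 438 against 14.4, 13.9 and 8.99 (-5.37, adjusted p = 3.4e-08). Gjc3, the connexin 29 gene of Schwann cells, was at 389, 483 and 424 against 4.33, 0.0197 and 0.203 (-10.72, adjusted p = 5.1e-07), and Lamc1, a laminin chain, at 427, 459.6 and 328 against 9.35, 4.31 and 5.24 (-6.14, adjusted p = 2.6e-09).

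Among protein-coding genes called higher in glia with no overlap between libraries and a glial mean over 50 TPM, Cldn19 had the largest difference, at 1.64, 0 and 0 in HCs and 117, 194 and 122 in glia (-12.07, SE 1.47, adjusted p = 1.9e-06). Dhh was at 1.05, 0 and 0 against 120.4, 183 and 104. Other genes of this rank were Bcas1, a protein of myelinating glia, at 54.5, 58.6 and 54.8 in glia, Gpr37l1, a glial receptor, at 72.9, 76.6 and 83.3, and Gatm, an enzyme of creatine synthesis, at 99.97, 61.1 and 105. Col3a1, a fibrillar collagen of fibroblasts and endoneurium, was at 75.1, 106 and 77.7 against 1.05, 0.0436 and 0.00817 (-10.17, adjusted p = 0.00066). In all of these genes HC replicate 1 was the highest HC library. Cldn19 overlaps Gm12927 and Bcas1 overlaps Bcas1os1 and Bcas1os2 on the other strand, and Dhh overlaps Rhebl1.

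Of 18 tested myelin genes 14 were higher in glia and none in HCs, with a median of -6.25. Mbp, myelin basic protein, was at 265, 373 and 193 in glia and 2.39, 0.683 and 0.907 in HCs (-7.96, SE 0.86, adjusted p = 4.5e-07), and Cnp, the cyclic nucleotide phosphodiesterase of noncompact myelin, at 282.5, 302 and 232 against 9.40, 5.93 and 7.10 (-5.25, adjusted p = 5.1e-10). Prx, the periaxin of Schwann cells, was at 135, 125 and 98.5 against 1.10, 0.223 and 0.0144 (-9.63), and Mag, the glycoprotein next to the axon, at 32.6, 6.50 and 18.7 against 0.174, 0 and 0 (-10.05). Mal, a raft protein of myelin, differed by -6.69, and Drp2, the dystrophin-related partner of Prx, by -5.81. Gjb1, the connexin 32 gene, did not pass, at 1.63, 1.53 and 1.02 against 0.208, 0.150 and 0.987 (-2.07, adjusted p = 0.17). Mog, a protein of central myelin, was at 0 in all 6 libraries. Of 13 genes of inherited demyelinating neuropathy 8 were higher in glia, among them Sh3tc2, an endosomal adaptor (-5.79), Ndrg1, a stress-response protein of Schwann cells (-8.89), Mtmr2, a lipid phosphatase (-3.01) and Litaf (-2.75).

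The transcription factors of Schwann cells were higher in glia at 8 of 17 members. Egr2, which switches on myelin genes, was at 397, 364.5 and 272 in glia and 7.74, 4.52 and 3.19 in HCs (-6.24, SE 0.66, adjusted p = 3.5e-07). Pou3f1, the promyelinating factor Oct6, was at 30.1, 22.9 and 15.8 against 0.215, 0 and 0 (-10.33, adjusted p = 4e-06). Zeb2, a repressor needed for myelination, was at 74.0, 76.2 and 58.3 against 0.820, 0.311 and 0.277 (-7.48, adjusted p = 2.5e-09), and Tfap2a, a neural crest factor of immature Schwann cells, differed by -7.36. Jun, which opposes myelination, was at 153, 166 and 132 against 93.7, 90.1 and 83.9 and did not pass (-0.76, adjusted p = 0.08). Sox9, a factor of otic epithelium and glial progenitors, was at 21.6, 18.2 and 17.7 in HCs and 0.0249, 16.7 and 3.96 in glia (4.45, adjusted p = 0.025).

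Of 17 glial receptors and surface proteins 11 were higher in glia and none in HCs. Erbb3 and Erbb2, the neuregulin receptor pair, were among them. Erbb3 was at 122.5, 145 and 118 against 7.36, 3.42 and 3.07 (-4.97, SE 0.35, adjusted p = 2e-09), and Erbb2 at 31.6, 52.6 and 15.1 against 1.72, 0.468 and 0.885 (-5.12). Kcnj10, the potassium channel of satellite glia, was at 110.5, 186 and 113 against 11, 7.68 and 6.77 (-4.004, adjusted p = 1.2e-08), and Apoe, a lipid carrier, at 118, 148 and 161 against 6.08, 5.22 and 5.68 (-4.62). Fabp7, a fatty acid-binding protein of glial precursors, differed by -6.62 and Lpar1, a lysophosphatidic acid receptor, by -3.52. Adgrg6, a receptor that starts myelination, missed the fold limit (-1.52, adjusted p = 0.0026).

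The basal lamina and its receptors were nearly all on the glial side, with 20 of 21 genes higher in glia and a median of -6.33. Lama2, Lama4, Lamb1 and Lamc1, chains of the Schwann cell laminins, differed by -5.56, -6.33, -8.11 and -6.14. Hspg2, the proteoglycan perlecan, was at 251, 411 and 275 in glia and 2.77, 0.503 and 0.261 in HCs (-8.86, SE 1.36, adjusted p = 2.8e-05), and Nid1, a laminin-collagen linker, at 144.5, 209.8 and 239 against 2.87, 0.431 and 0.612 (-7.78). The laminin receptors Itga6 and Itgb1 differed by -7.49 and -4.11, with Itga6 at 172, 159.8 and 163 against 2.02, 0.773 and 0.595. Dag1, dystroglycan, was at 270.2, 359.5 and 327 against 36.9, 37.2 and 36.5 (-3.07, adjusted p = 1.8e-10). Lama5, a laminin chain of epithelia, was the member that did not pass (0.20, adjusted p = 0.79).

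Lipid synthesis genes did not move as one group. Of 19 genes of fatty acid and sphingolipid synthesis 6 were higher in glia and none in HCs. Scd2, a desaturase, was at 366, 449 and 323 in glia and 81.2, 71.3 and 70.7 in HCs (-2.35, SE 0.18, adjusted p = 4e-09), and Fa2h, which hydroxylates myelin lipids, at 41.0, 94.7 and 38.0 against 6.99, 8.15 and 8.62 (-2.69). With scaling by library totals 2 genes of this list were called higher in glia. Of 22 genes of cholesterol synthesis 1 was called, Hsd17b7, a sterol 3-ketoreductase, which was higher in HCs at 244, 233 and 215 against 31.5, 23.7 and 11.7 (3.38, SE 0.28, adjusted p = 1.2e-08). The median of the cholesterol list was 0.70.

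Genes of the cell cycle and DNA replication were higher in glia at 15 of 24 members and in HCs at none. Mki67, a proliferation marker, was at 89.6, 33.03 and 14.5 in glia and 0.270, 0.0766 and 0.347 in HCs (-7.69, SE 1.75, adjusted p = 0.0013), and Top2a, a topoisomerase of dividing cells, at 40.5, 21.6 and 8.68 against 0.256, 0.0190 and 0.138 (-7.93, adjusted p = 0.00033). Pcna, the replication clamp, was at 49.6, 43.2 and 53.7 against 7.48, 3.92 and 4.96 (-3.25, adjusted p = 6.2e-07), and Ccnd1, cyclin D1, at 23.7, 38.4 and 26.9 against 1.09, 1.02 and 1.76 (-4.48). The inhibitors Cdkn1a, Cdkn1b and Cdkn1c were also higher in glia (-2.07, -2.93 and -2.32). Cdk1 was at 15.9, 6.42 and 1.56 in glia, with counts in a single HC library. The calls of Rrm2 and Mcm7 were lost in 13 and 12 of the 18 alternatives, and without glial replicate 1 Mcm7 was at -1.24 (adjusted p = 0.1) against -2.05 with it. Those of Cdkn1a and Cdkn1c were lost in 8 and 3, and those of Mki67, Mcm3 and Cdc20 in 1 each. Glial replicate 1 was the highest library at Mki67, Top2a and Cdk1.

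Notch pathway genes went both ways, 6 higher in HCs and 4 in glia of 20 tested. Over all tested genes 17.9% were higher in HCs and 8.78% in glia. The called ligands Dll1, Dll4, Jag2 and Dner were higher in HCs, and the call of Dll4 was lost in 8 of the 18 alternatives. Dll1 was at 7.03, 8.95 and 5.88 in HCs and 0.0733, 0.0823 and 0.730 in glia (5.39, SE 0.81, adjusted p = 2.1e-05), Jag2 at 11.7, 14.2 and 12.8 against 1.21, 0.262 and 4.75 (3.50), and Dner, a noncanonical ligand, at 35.0, 36.7 and 39.0 against 7.91, 1.61 and 2.35 (3.38). The receptors Notch1 and Notch2 were on the glial side, Notch1 at 17.6, 22.4 and 14.4 in glia and 3.15, 2.21 and 3.67 in HCs (-2.61, adjusted p = 0.00014, but 0.037 in edgeR) and Notch2 at 13.5, 20.97 and 10.5 against 0.805, 0.818 and 0.740 (-4.19, adjusted p = 0.00027). The effectors split, with Heyl higher in HCs (4.53) and Hey1 higher in glia (-2.28). Jag1, a ligand of supporting cells, did not pass (-0.55, adjusted p = 0.28).

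Of 21 splicing regulators tested, 3 were higher in HCs and 2 in glia, which is no larger a share than over all tested genes on the HC side (17.9%) and near it on the glial side (8.78%). Qk, the RNA-binding protein quaking that shapes myelin transcripts, was at 207, 223 and 209.5 in glia and 5.98, 3.34 and 3.92 in HCs (-5.67, SE 0.27, adjusted p = 2.2e-11), and Mbnl2, a muscleblind protein, at 75.7, 63.8 and 67.3 against 7.76, 5.12 and 4.25 (-3.70, adjusted p = 1.9e-08). Srrm4, which drives neural microexon splicing and is needed in HCs, was at 23.9, 24.9 and 20.01 in HCs and 2.45, 0.580 and 0.366 in glia (4.61, SE 0.50, adjusted p = 5e-07). Celf6 and the low-count Nova2 were the others on the HC side. Ptbp1, a repressor of neural exons that most cells express, was at 74.4, 78.0 and 91.9 against 74.4, 49.8 and 65.6 (0.36, adjusted p = 0.31).

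Immediate early genes, which cell handling can induce, were higher in glia at 4 of 17 and in HCs at 1. The shares over all tested genes were 8.78% and 17.9%. Nr4a1, a nuclear receptor, was at 514, 437 and 349 in glia and 30.1, 25.5 and 32.1 in HCs (-3.92, SE 0.48, adjusted p = 1.9e-06), and Fosb, an AP-1 subunit, at 436, 511 and 429 against 101, 92.1 and 97.8 (-2.24, adjusted p = 0.0001). The call of Fosb was lost in edgeR (adjusted p = 0.024) and under library size scaling, where its log2 difference was -1.75. Fos was at 489, 468.5 and 559 against 129, 146.5 and 126, under the fold limit (-1.91, adjusted p = 0.00045), and Egr1 did not pass (-0.82, adjusted p = 0.16). Hsp90aa1, an inducible chaperone, was higher in HCs (2.16). The summed level of the list was 938 to 1007 in HCs and 2179 to 2491 in glia, and the part of cell isolation in this was not tested.

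Some abundant genes differed little. Hsp90ab1, the constitutive chaperone, was at 566.5, 518.5 and 488 in HCs and 615, 398 and 396 in glia (0.12, SE 0.15, adjusted p = 0.56). Ubb, a ubiquitin gene, and Tuba1a, an alpha tubulin, had log2 differences of -0.33 and -0.33 with overlapping libraries. Mrfap1 and Ywhaz, a 14-3-3 protein, differed by 0.62 and -0.53 without overlap and with the 95% interval within 1 log2 unit on either side of 0, as for the 3 others. Glycolysis genes gave 1 call on each side of 21, Aldoc, the brain aldolase, in HCs (3.68) and Slc16a1, a monocarboxylate transporter, in glia (-2.86). The call of Slc16a1 was lost without HC replicate 2 and when the 6 libraries were fitted alone, with or without a replicate block. Gapdh was at 191, 173 and 150.3 against 99.7, 82.2 and 83.1, a log2 difference of 0.91 (adjusted p = 0.074).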

How the data were processed

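The authors deposited counts per gene for 21 libraries, made with Ovation RNA-Seq V2 amplification. The submitters' processing notes name CASAVA, STAR 2.4.0i, featureCounts and mm10, and the counts follow GENCODE M15. Strand settings are not given in the sources used here, so a gene and an antisense neighbour cannot be told apart. Of the counts from 1 to 20 in the 6 libraries, 64.3 to 75.0% were even. Positions and overlaps were taken from GENCODE M21 on GRCm38.

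As in the study's methods, TMM factors (edgeR 4.0.16) and voom with limma 3.58.1 (R 4.3.3) were fitted on all 21 libraries, with 1 mean per group and genes over 1 CPM in all 3 libraries of any group (17531 genes). Benjamini-Hochberg adjustment ran over those genes, and a call needed a fold over 4 and an adjusted p under 0.01. The study gives the number 17531 for this filter without HCs and glia, and a larger number with them. Alternatives were edgeR's quasi-likelihood test, DESeq2 1.42.0, other scalings, filters, weights and thresholds, the 6 libraries alone, counts divided by 2, no mitochondrial genes, and each library left out.

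Text names the markers the study used, the 8 protein-coding genes per direction with the largest called differences (over 50 TPM, no overlap; since Gm23935 takes more of glial TPM, this is a higher normalised RPKM in glia), the 8 most abundant called, 5 abundant genes with an interval within 1 log2 unit, and up to 5 abundant members of each of 34 lists plus members an account turns on. Members and lists were chosen with earlier results of these data known. The floor of 3 counts was 0.152 to 0.289 CPM per library and covers counting error only. Replicate numbers did not pair the groups, since the deviations from the group means of same-numbered libraries had a Pearson r of -0.041, -0.0075 and -0.0077. The labels describe hand picking for both groups, while the study's methods describe flow sorting for HCs. Some genes that the rule names are not reported here.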

Additional observations from a re-analysis of the deposited data

How the results depend on the processing

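Of the 241 called genes in the lists and among those named, none changed direction under the 18 alternatives and 156 kept their call in every one where they were tested. With thresholds of 2-fold and an adjusted p of 0.05, 7094 genes were called, 2939 of them higher in glia. edgeR called 1732 genes higher in HCs against 2801 (3119 in all). Quality weights, which gave HC libraries 1.97 to 2.27 and glial libraries 0.304 to 0.353, called 2198 genes, 861 of them higher in HCs. Without 1 library at a time the calls were 3377 to 4142, with 2051 to 2672 higher in HCs and 1074 to 1470 higher in glia, and the list genes called were 210 to 221 against 230. Of the 241, 79, 39 and 48 moved by over 1.5 times in fold without glial replicates 1, 2 and 3, and 33, 20 and 22 without HC replicates 1, 2 and 3. The 6 libraries alone gave 3246 calls and, with a replicate block, 3451 (2281 higher in HCs, 1170 in glia). Because the numbers do not pair the samples, the block shows only how these libraries fall, and it left the counts within 1.5 times. DESeq2 called 4017 genes and gave no adjusted p for 235. Scaling by library size called 4493. List counts that moved over 1.5 times in some alternatives came from small and larger lists, splicing, Notch and epithelial junctions among them, and the causes were not tested. Precision is limited by the spread between glial replicates, which exceeded that of HCs.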

Other observations

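Some gene families, grouped by the start of the symbol after their values were seen, are given by direction. The grouping also took in other genes, such as Itgb1bp1, Itgb1bp2, Itgb3bp and Itgbl1 with the integrins and Col4a3bp with the collagens. Auxiliary or related genes such as Kcnip2, Kcnab1 and Kcnrg came in with the potassium channels. Kcnab1 was called higher in HCs and Kcnrg higher in glia. Over all tested genes the shares were 17.9% higher in HCs and 8.78% higher in glia. Axonemal dynein heavy chains were higher in HCs at 11 of 14 tested genes and cilia and flagella associated proteins (Cfap) at 24 of 30, with none higher in glia, while intraflagellar transport genes, used by all cilia, were higher in HCs at 6 of 14. Collagens were higher in glia at 17 of 39 and in HCs at 2, Col17a1 (log2 difference 4.96), a transmembrane collagen of epithelia, and Col20a1 (2.83). Genes with integrin symbols were higher in glia at 10 of 25. Of the laminins, Lamb3, an epithelial chain, was higher in HCs (6.52) against 5 of 10 higher in glia.

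Genes with potassium channel symbols went both ways, 18 higher in HCs (37.5%) and 9 in glia (18.75%) of 48. Kcnv1 and Kcnh6 were on the HC side (7.64 and 6.79) and Kcna6 and Kcna1, channels of myelinated nerve, on the glial side (-9.21 and -8.78). Protocadherins were higher in HCs at 11 of 55 (near the share of 17.9% over all tested genes) and in glia at 2. Claudins were higher in HCs at 5 of 11 and in glia at Cldn19 and Cldn1 (-12.07 and -9.18). Semaphorins gave 4 and 5 of 20 and Eph receptors 2 and 4 of 11.

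Of 81 ribosomal protein genes 1 was called, Rps19, higher in glia (-2.39), with a median log2 difference of -1.06 against 0.20 over all tested genes. Cytochrome c oxidase subunits gave no limma call of 12 tested, with a median of -0.36, and complex I genes gave 3 of 45, all higher in HCs.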
